A study of Mus musculus with 6 samples.

Results

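Mechanosensitive cation channels are membrane pores that let calcium, sodium or magnesium through when the membrane is stretched, sheared or swollen. The genes described here are 9 such channels and channel partners, chosen by symbol: Piezo1, Piezo2, Trpv4, Trpm7, Trpc1, Tmem63a, Tmem63b, Pkd1 and Pkd2. All 9 were among the 12389 genes measured. Messenger RNA came from untreated primary smooth muscle cells of the mouse thoracic aorta, grown out of tissue pieces and used at passage 6 or below. The 3 wild-type (WT) libraries came from wild-type mice, and the 3 KO libraries came from mice with a smooth muscle-specific knockout of LRRC8A, the obligatory subunit of a chloride channel that opens when cells swell. The promoter that restricts the deletion to smooth muscle, and the age, sex and strain of the animals, are unknown from the sources used here. All 6 libraries carry the same wild-type entry as genotype, so the groups follow the sample titles.

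In arterial smooth muscle, stretch of the wall opens cation channels, and the calcium and depolarization that follow feed contraction and gene regulation. PIEZO proteins are very large trimeric pores that open directly under membrane tension, PIEZO1 in vessels and many other tissues and PIEZO2 best known from sensory neurons. TMEM63 proteins are the animal relatives of the plant OSCA channels and open at high tension or under osmotic stress. TRP channels integrate stretch, osmotic and receptor signals, and the polycystins PKD1 and PKD2 form a complex at the primary cilium.

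The estimated depth was 31018438 to 47931007 reads per library. Values of single libraries are given throughout in the order of replicates 1, 2 and 3. Lrrc8a, the targeted gene, stood at 2578, 2194 and 1221 scaled reads in the WT libraries and at 868, 673 and 506 in the KO libraries, so the groups did not overlap. Its log2 difference of -1.51 (SE 0.34) did not pass over all genes (limma adjusted p = 0.999). Of 12 smooth muscle marker genes 9 were analysed, and their summed level ran from 82151 to 392731 scaled reads in WT and from 84074 to 204139 in KO. Both highest sums were in the replicate 3 libraries. The myosin gene Myh11 stood at 90.1, 152 and 1656 scaled reads in the WT libraries and at 41.7, 20.8 and 96.8 in the KO libraries, and Myocd, Des and Mylk were not analysed here. The fibroblast list had 7 of 8 genes analysed, with sums of 18125 to 65562 in WT and 21038 to 58920 in KO, its most abundant genes being Dcn and Col14a1. Endothelial markers (2 of 10 analysed, Kdr and Egfl7) summed to 94.9 to 461 scaled reads in WT and 116 to 463 in KO, and leukocyte markers (3 of 8, led by Lyz2 and Csf1r) to 1233 to 1594 in WT and 392 to 1197 in KO, every KO sum below every WT sum. Mesothelial and epithelial markers (5 of 8, led by Msln and Upk3b) summed to 5562 to 9936 in WT and 1098 to 6769 in KO. None of the marker genes passed limma's test, and the part of other cell types in the results that follow was not tested.

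None of the 9 channel genes differed between KO and WT beyond the spread between cultures. limma gave 0 of 9 past an adjusted p of 0.05, where the share over all 12363 tested genes was 0%. It gave 0 of 9 at an unadjusted p under 0.05, against 3.62% of all tested genes. For none of the 9 did the KO and WT libraries separate without overlap, which 8.43% of all tested genes did (4.51% with KO lower and 3.91% with KO higher). Groups separate more easily where libraries are left out, and the share over all genes was not computed for such fits. With the library number as a replicate block, 0 of 9 had an unadjusted p under 0.05, against 7.42% of all tested genes. By the authors' deposited table, 0 of 9 passed a false discovery rate (FDR) of 0.05, against 0.525% of all genes there, and 0 of 9 had a p under 0.05, against 5.3%. The log2 difference was below 0 for 8 of the 9, against 49.6% of all tested genes, and the median was -0.13 over the 9 genes and 0.00 over all. That count rested on single libraries: it was 4 of 9 without WT replicate 1 and 4 of 9 without KO replicate 3, where 50.6% and 49.0% of all tested genes were below 0. With bulk RNA, fewer cells of a type and less RNA per cell cannot be told apart. All values are scaled reads, that is estimated reads after division by one factor per library, and differences are KO minus WT of log2(scaled reads + 2), which understates changes of low genes. Intervals are 95% intervals from limma.

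**Figure D1:**
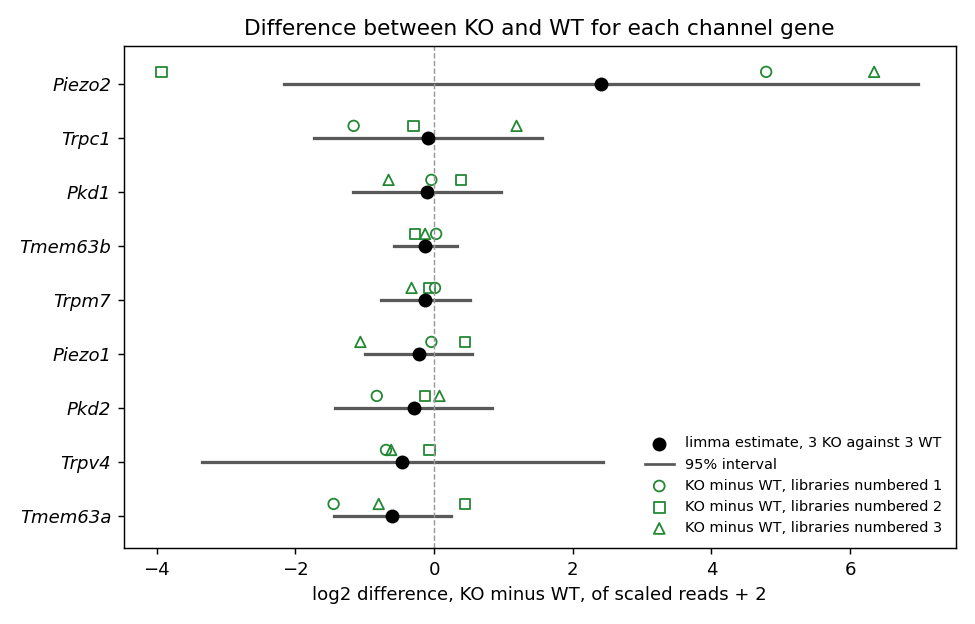
KO minus WT difference of log2(scaled reads + 2) for each of the 9 genes. Black points are the limma estimates over 3 KO and 3 WT libraries, grey lines their 95% intervals, and open green symbols the differences between the KO and WT library of the same number. Every interval includes 0, from the narrow one of Tmem63b (-0.58 to 0.33) to the wide one of Piezo2 (-2.17 to 6.97).

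Levels were compared between genes per kb of exon, using all annotated exons of each gene joined. Piezo1 stood first with a mean of 2374 scaled reads per kb over the 6 libraries, above 93.8% of all genes with a length. Pkd2 followed with 1151, then Tmem63b with 813, Tmem63a with 707, Pkd1 with 600 and Trpm7 with 564 scaled reads per kb. The last 3 lay far lower, Piezo2 at 41.5, Trpv4 at 28.8 and Trpc1 at 16.96 scaled reads per kb. The last 3 levels rank above 6.82%, 3.97% and 1.44% of the genes measured. Even the lowest of the measured genes reached 143 scaled reads in its highest library. Genes below that level are thus missing from these ranks. The cultures thus carried a high and a low tier of these channels, with none of the 9 between 41.5 and 564 on average.

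Within a library, Piezo1 was above Pkd2 per kb in 6 of 6 libraries and Trpm7 above Piezo2 in 6 of 6. Inside the tiers the order of neighbours was not fixed. Pkd2 was above Tmem63b in 4 of 6 libraries, Tmem63b above Tmem63a in 4 of 6, Tmem63a above Pkd1 in 5 of 6 and Pkd1 above Trpm7 in 3 of 6. Piezo2 was above Trpv4 in only 2 of 6 libraries although its mean was higher, and Trpv4 above Trpc1 in 5 of 6. With the longest coding transcript as the length, an alternative chosen after the data were seen, Trpm7 (898 scaled reads per kb) moved ahead of Pkd1 (737) and the other places held.

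**Figure D2:**
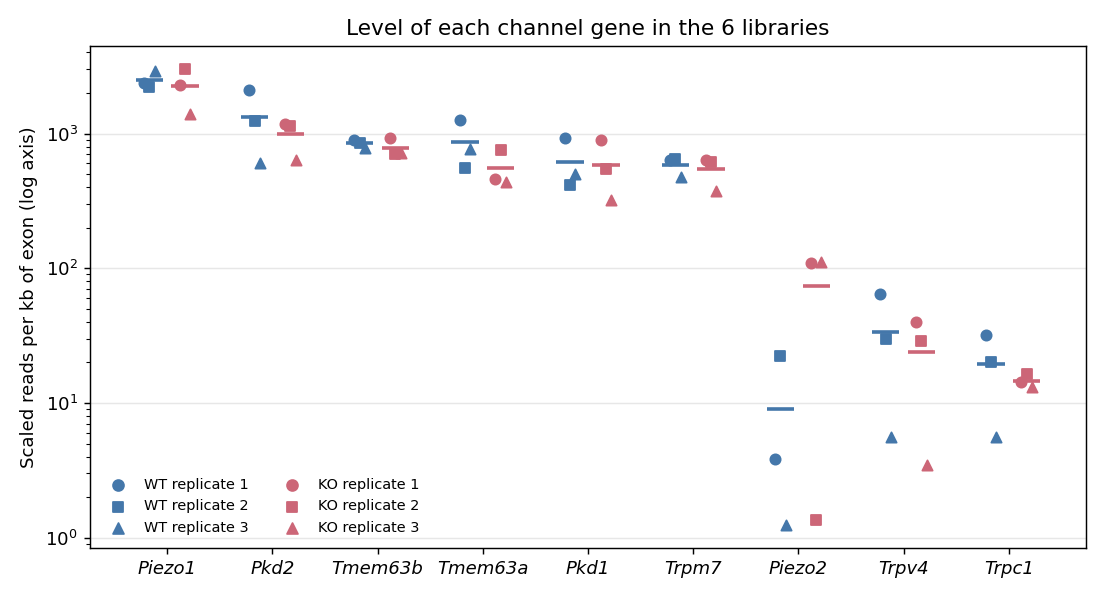
Scaled reads per kb of exon on a log axis for the 9 genes, ordered by their mean. Blue marks are WT and red marks KO libraries, the shape gives the replicate number, and horizontal bars are the group means of 3 libraries. Piezo1 to Trpm7 form an upper tier, and the 6 Piezo2 marks spread from 1.24 to 111.

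Piezo1 encodes the main stretch-activated cation channel of many vascular cells (ENSMUSG00000014444, GRCm38 chromosome 8, 122481698 to 122551329, minus strand). Its WT values were 23558, 22125 and 28991 scaled reads and its KO values 22912, 30092 and 13864. The KO libraries held both the highest and the lowest value of the 6, so the groups overlapped fully. WT averaged 24892 ± 3622 and KO 22289 ± 8132 (SD, n = 3 each). KO minus WT came to -0.22 (SE 0.33, interval -0.99 to 0.55, limma adjusted p = 0.999), which bounds the KO level to between 0.503 and 1.47 times that of WT. The difference was 0.087 without KO replicate 3, 0.20 without both libraries numbered 3 and 0.19 with library quality weights.

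The exons of Piezo1 share 2441 bases with Ctu2, a tRNA-modifying enzyme gene on the opposite strand, and the gene lies inside the long predicted gene Gm20388, with which it shares no exon bases. The sources used here do not say whether counting used strand, so reads of the shared stretch may have gone to either gene. Ctu2 averaged 705 ± 195 in WT and 868 ± 40.5 scaled reads in KO (SD, n = 3 each), a small fraction of the Piezo1 level.

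Piezo2, the touch and stretch channel of sensory neurons (ENSMUSG00000041482, chromosome 18, 63010213 to 63387183, minus strand), was the most uneven of the 9. Its WT values were 66.4, 381 and 21.4 scaled reads and its KO values 1888, 23.1 and 1898. KO replicates 1 and 3 stood above every other library, and KO replicate 2 lay with the lowest WT library. In estimated reads the low libraries held 56.0 (WT replicate 1), 27.0 (WT replicate 3) and 20.0 (KO replicate 2), and the high KO libraries 1765 and 2667. The highest library had 88.9 times the lowest, and 1.52% of all tested genes had a wider log2 range.

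For Piezo2, WT averaged 156 ± 196 and KO 1270 ± 1080 (SD, n = 3 each). On the log2 scale the difference was 2.40 (SE 1.90, interval -2.17 to 6.97, limma adjusted p = 0.999), and the exact permutation p, two-sided, was 0.3, where 3 libraries against 3 cannot go below 0.1. By library number the log2 differences were 4.79, -3.93 and 6.35, so 1 of the 3 went the other way. In the authors' deposited table Piezo2 had a log2 ratio of 3.02 with p = 0.0603 and an FDR of 1.0. Without KO replicate 2 the difference was 4.48 and the groups no longer overlapped, with a limma adjusted p of 1.0. Without WT replicate 2 it was 3.49, without WT replicate 3 it was 1.47, and without KO replicate 1 or KO replicate 3 it was 1.36 each. Without both libraries numbered 2 it was 5.57 and without both numbered 3 it was 0.43. It turned to -1.13 with library quality weights and to -0.40 with weights and the replicate block.

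The pattern of Piezo2, with KO replicates 1 and 3 above all 4 other libraries, was found in 4.59% of all tested genes. The Schwann and neural marker list had 3 of 8 genes analysed and was led by Mbp and Tubb3. It summed to 1159 to 2887 scaled reads in WT and to 1528, 2720 and 1950 in KO replicates 1 to 3. Sox10, Ngfr and Elavl4 were not analysed here. The fibroblast markers summed to 58920, 42568 and 21038 in KO replicates 1 to 3. Single genes of that list differed in order, with Dcn at 24710.5, 26351 and 1362 and Col14a1 at 28445, 1994 and 4166. The part of either marker list in the Piezo2 result was not tested.

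Next to Piezo2 on chromosome 18, Apcdd1, a Wnt inhibitor gene 49034 bases away, stood at 546, 267 and 24.5 scaled reads in the WT libraries and at 1980, 1520 and 603 in the KO libraries. All KO libraries lay above all WT libraries, at a log2 difference of 2.95 (SE 1.13) that did not pass (limma adjusted p = 0.999). Napg, a membrane fusion factor gene 10763 bases away, had a log2 difference of -0.10 (SE 0.26).

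Tmem63a and Tmem63b, the OSCA-related channels, showed the contrast between a variable and a steady gene of one family. Tmem63a (ENSMUSG00000026519, chromosome 1, 180942344 to 180975112, plus strand) stood at 5682, 2489 and 3447 scaled reads in the WT libraries and at 2078, 3385 and 1979 in the KO libraries. KO replicates 1 and 3 lay below all WT libraries, and KO replicate 2 lay among them. The log2 difference was -0.60 (SE 0.36, interval -1.44 to 0.24, limma adjusted p = 0.999), the smallest unadjusted p of the 9 at 0.134. An exact permutation test gave p = 0.2. Means were 3872 ± 1639 for WT and 2481 ± 785 for KO (SD, n = 3 each). Without WT replicate 2 or KO replicate 2 the groups did not overlap, at -0.88 and -0.85, and neither difference passed over all genes. The difference was -0.28 without WT replicate 1, -0.18 without both libraries numbered 1 and 0.069 with library quality weights.

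Tmem63b (ENSMUSG00000036026, chromosome 17, 45660171 to 45686905, minus strand) stood at 4595, 4352 and 3984 scaled reads in the WT libraries and at 4688, 3594 and 3640 in the KO libraries. KO replicate 1 was the highest library and KO replicates 2 and 3 the lowest, all within a 1.30-fold range. WT averaged 4311 ± 308 and KO 3974 ± 619 (SD, n = 3 each). KO minus WT came to -0.13 (SE 0.19, limma adjusted p = 0.999), and the interval bounds the KO level to between 0.668 and 1.26 times that of WT, the tightest bound of the 9. Its residual SD was below that of all but 9.67% of tested genes. Mrpl14, a mitochondrial ribosomal protein gene on the opposite strand, shares 106 exon bases with it, and averaged 741 ± 191 in WT and 805 ± 283 scaled reads in KO (SD, n = 3 each).

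Trpm7, a magnesium- and calcium-permeable channel fused to a kinase (ENSMUSG00000027365, chromosome 2, 126791565 to 126876230, minus strand), was the most abundant of the 3 genes with a Trp symbol. Its WT values were 7186, 7272 and 5359 scaled reads and its KO values 7248, 6951 and 4273. The replicate 3 library was the lowest in each genotype, and the groups overlapped. Means were 6605 ± 1080 for WT and 6157 ± 1638 for KO (SD, n = 3 each). On the log2 scale the difference was -0.13 (SE 0.27, interval -0.77 to 0.51, limma adjusted p = 0.999), and it was 0.12 without KO replicate 3.

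Trpv4, the osmosensitive calcium channel of the vanilloid TRP group (ENSMUSG00000014158, chromosome 5, 114622152 to 114658421, minus strand), was low everywhere. Its WT values were 264, 123 and 22.9 scaled reads and its KO values 163, 117 and 14.2. Both replicate 3 libraries lay far below the other 4, and the groups overlapped. Those 2 libraries rest on 29.0 (WT) and 20.0 (KO) estimated reads. WT averaged 137 ± 121 and KO 97.8 ± 76.0 (SD, n = 3 each). The log2 difference was -0.46 (SE 1.23, interval -3.35 to 2.43, limma adjusted p = 0.999), and it turned to 0.29 without WT replicate 1 and to 0.57 without KO replicate 3. By library number it was -0.69, -0.07 and -0.62, below 0 in 3 of 3, and with the replicate block its SE was 0.59 and limma's adjusted p 0.866.

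Trpc1, a subunit of canonical TRP channels (ENSMUSG00000032839, chromosome 9, 95705082 to 95750375, minus strand), stood at 258, 162 and 45.1 scaled reads in the WT libraries and at 114, 132 and 105 in the KO libraries. The WT libraries held both extremes and the KO libraries lay between them. Means were 155 ± 107 for WT and 117 ± 13.4 for KO (SD, n = 3 each). KO minus WT came to -0.09 (SE 0.70, interval -1.73 to 1.55, limma adjusted p = 0.999), and it was 0.43 without WT replicate 1, 0.10 without WT replicate 2 and 0.45 without both libraries numbered 1. Without WT replicate 3 it was -0.80, and the groups did not overlap.

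Pkd1, the large receptor-like polycystin (ENSMUSG00000032855, chromosome 17, 24549834 to 24596508, plus strand), stood at 16044, 7217 and 8775 scaled reads in the WT libraries and at 15602, 9453 and 5564 in the KO libraries. The replicate 1 libraries were the highest in both genotypes and differed little from each other. WT averaged 10679 ± 4711 and KO 10206 ± 5061 (SD, n = 3 each). On the log2 scale the difference was -0.10 (SE 0.45, interval -1.17 to 0.96, limma adjusted p = 0.999), and it was 0.23 without WT replicate 1, 0.27 without KO replicate 3 and 0.44 when libraries were weighted by quality. The exons of Pkd1 share 693 bases with Tsc2, a growth-control gene on the opposite strand, which averaged 4107 ± 360 in WT and 3882 ± 219 scaled reads in KO (SD, n = 3 each).

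Pkd2, the cation channel subunit of the polycystin complex (ENSMUSG00000034462, chromosome 5, 104459450 to 104505819, plus strand), stood at 21309, 12670 and 6181 scaled reads in the WT libraries and at 12006, 11563 and 6518 in the KO libraries. Both replicate 3 libraries were the lowest and WT replicate 1 stood alone at the top. Means were 13386 ± 7590 for WT and 10029 ± 3048 for KO (SD, n = 3 each). The log2 difference was -0.29 (SE 0.48, interval -1.43 to 0.84, limma adjusted p = 0.999). It turned to 0.13 without WT replicate 1, and it was -0.76 without WT replicate 3, where the groups did not overlap.

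Several of the 9 genes were ordered by the library number in both genotypes. Both replicate 3 libraries lay below all 4 others for Trpv4, Trpm7, Trpc1 and Pkd2, that is for 4 of 9, and 16.7% of all tested genes showed this. Both replicate 1 libraries lay above all 4 others for Trpv4, Tmem63b and Pkd1, 3 of 9, against 12.4% of all tested genes. The reverse, replicate 3 above or replicate 1 below all others, was seen for 0 of 9, against 17% and 11.2% of all tested genes. For 0 of 9 did both replicate 2 libraries lie above (5.82% of all genes) or below (4.92%) all others. The labels do not say what a number stands for. Some smooth muscle markers were ordered by the number as well. Acta2, smooth muscle actin, which with Cald1 led that list, stood at 130984 scaled reads in WT replicate 3 and 59317 in KO replicate 3. It was at most 21829 elsewhere. Cald1, Tagln, Cnn1 and Myl9 also had both replicate 3 libraries above all 4 others, as 17% of all tested genes did. Myh11, Smtn, Lmod1 and Synpo2 did not. The part of these markers in the result was not tested.

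**Figure D3:**
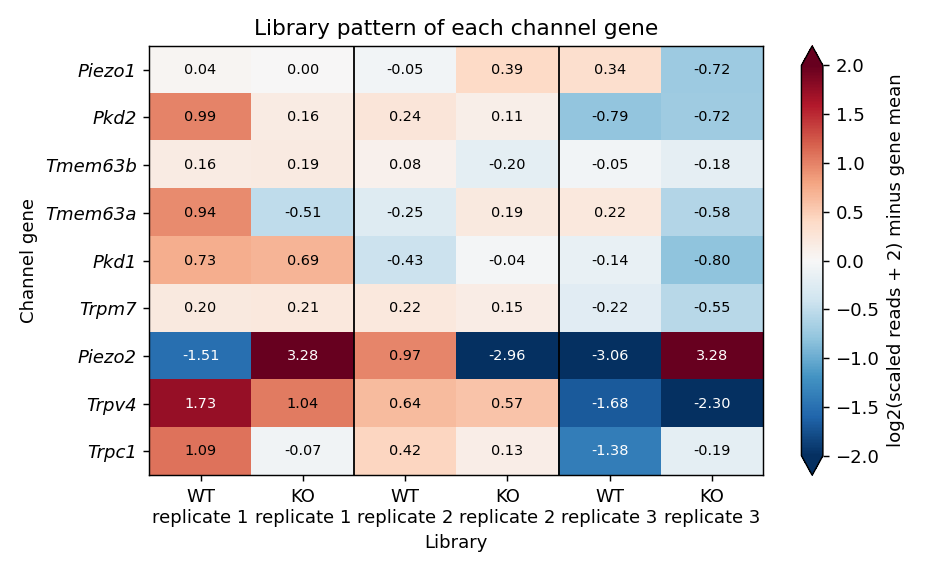
Deviation of log2(scaled reads + 2) from each gene's mean over the 6 libraries, with same-numbered WT and KO libraries side by side and the colour scale ending at 2 in either direction. Pkd2, Trpm7, Trpv4 and Trpc1 are below their means in both replicate 3 columns, and Piezo2 runs from -3.06 in WT replicate 3 to 3.28 in KO replicates 1 and 3.

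Ratios within a library depend little on how libraries were scaled, and 3 pairs of related channels were compared in this way. The log2 ratio of Piezo1 to Piezo2 was 8.43, 5.85 and 10.28 in the WT and 3.60, 10.23 and 2.87 in the KO libraries. Piezo1 reads exceeded Piezo2 reads in every library, by the least in KO replicates 1 and 3. The KO minus WT difference of this ratio was -2.62 (exact permutation p = 0.3, 0.6 adjusted over the 3 pairs, n = 3 each). It was -0.23 without both libraries numbered 3 and -6.12 without both numbered 2.

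The log2 ratio of Tmem63a to Tmem63b averaged -0.24 ± 0.56 in the WT and -0.71 ± 0.56 in the KO libraries (SD, n = 3 each), a difference of -0.48 (exact permutation p = 0.4, adjusted 0.6). The ratio of Pkd1 to Pkd2 averaged -0.24 ± 0.68 in the WT and -0.05 ± 0.37 in the KO libraries (SD, n = 3 each), a difference of 0.19 (exact permutation p = 0.7, adjusted 0.7). These ratios are of scaled reads and not of reads per kb. The smallest p that 3 libraries against 3 allow is 0.1, so none of the 3 tests could have passed 0.05. The Pkd1 to Pkd2 difference was -0.10 without WT replicate 2 and -0.02 without KO replicate 1.

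**Figure D4:**
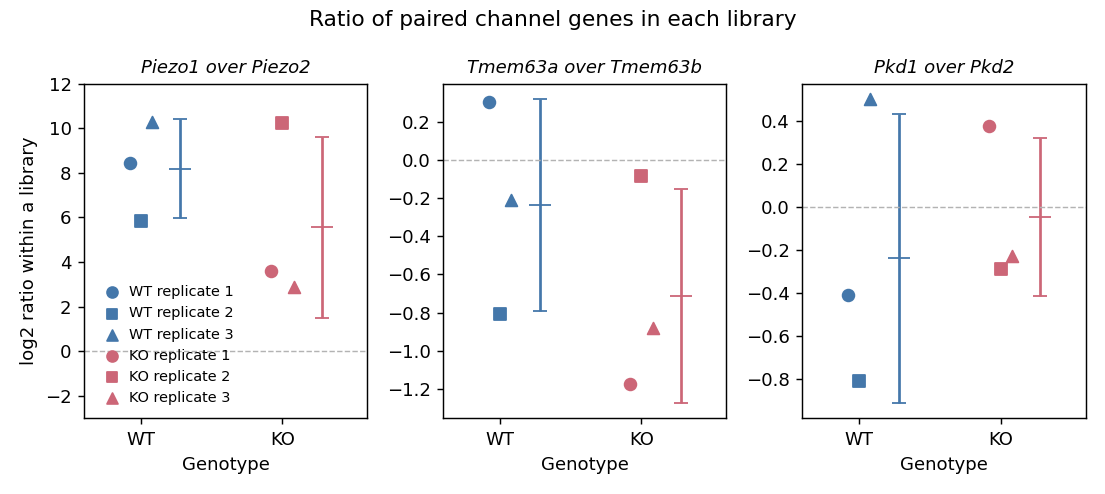
log2 ratio of scaled reads + 2 within each library for Piezo1 over Piezo2, Tmem63a over Tmem63b and Pkd1 over Pkd2. Points are libraries, and bars beside them give the group mean and SD of 3 libraries. In all 3 panels the KO points overlap the WT points.

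The 250 bases before the gene start are shown for 3 genes, as RefSeq gives them on GRCm38.p6, 5′ to 3′ on the gene's strand. They are Piezo1 (the highest level), Trpm7 (the highest gene with a Trp symbol) and Trpv4 (the widest range among the 8 of 9 genes that matched). Capitals mark matches on either strand to the TATA box letters TATAAA, to GGGCGG, known as a GC box, to the E-box letters CACGTG and to CATTCC, known as the MCAT element. None of the marked matches overlap.
Piezo1, chr8:122551330-122551579, minus strand: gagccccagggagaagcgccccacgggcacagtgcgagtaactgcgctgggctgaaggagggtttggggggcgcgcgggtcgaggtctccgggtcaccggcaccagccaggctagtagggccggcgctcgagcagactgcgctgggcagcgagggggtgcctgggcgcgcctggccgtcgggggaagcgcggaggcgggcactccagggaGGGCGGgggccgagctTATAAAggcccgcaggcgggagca
Trpm7, chr2:126876262-126876511, minus strand: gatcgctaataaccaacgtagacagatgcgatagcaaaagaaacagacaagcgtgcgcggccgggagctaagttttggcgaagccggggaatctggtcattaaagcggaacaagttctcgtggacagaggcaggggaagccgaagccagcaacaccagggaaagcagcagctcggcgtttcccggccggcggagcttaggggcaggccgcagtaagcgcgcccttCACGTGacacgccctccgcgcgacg
Trpv4, chr5:114658422-114658671, minus strand: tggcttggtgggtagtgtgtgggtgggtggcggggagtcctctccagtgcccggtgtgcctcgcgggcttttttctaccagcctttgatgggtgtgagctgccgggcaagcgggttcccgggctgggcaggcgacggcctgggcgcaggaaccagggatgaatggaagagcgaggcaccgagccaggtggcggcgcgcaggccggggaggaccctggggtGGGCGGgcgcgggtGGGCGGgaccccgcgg

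The Piezo1 window held 1 TATA match, a motif in 12.4% of 32851 windows of the same length, and 1 GC box, a motif in 32.7%. The Trpm7 window held 1 E-box (in 6.02% of windows) and the Trpv4 window 2 GC boxes. The MCAT letters were in 12.6% of windows and, of the 8 matched genes, in that of Pkd2. The base content of the windows did not follow the 2 tiers of level. Trpv4, of the low tier, had 72.0% G and C and Pkd2, of the high tier, 52.8%, beside a median of 52.4% over all windows.

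Patterns most like each gene's were sought over the 6 libraries by Pearson's r of log2(scaled reads + 2) among 12362 other genes, as a description, since the libraries share number and genotype. For Piezo1 it was Cav2 (r = 0.998), for Piezo2 Aldh1a2 (0.993), for Trpv4 Hdhd5 (0.999), for Trpm7 Ktn1 (0.993) and for Trpc1 Plppr3 (0.994). For Tmem63a it was Slc41a3 (0.992), for Tmem63b Ip6k1 (0.994), for Pkd1 Med15 (0.996) and for Pkd2 Tmem87a (0.997). Between 7 (Tmem63a) and 215 (Trpv4) of the 12362 genes reached an r of 0.95 or more, so no named gene stood alone at such an r. Aldh1a2, a retinoic acid synthesis enzyme, stood at 97.2, 1605 and 9.49 scaled reads in the WT libraries and at 7065, 18.5 and 8300 in the KO libraries, the same order of the 6 libraries as for Piezo2.

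Genes that work with these channels were described in 7 lists with 122 tested genes in all. Of these 122, 0 passed limma's adjusted p of 0.05. An unadjusted limma p under 0.05 was found for 5 (Tmc7, Stom, Prkcsh, Dync2h1 and Akap13), a share near the 3.62% of all tested genes. For 10 the KO and WT libraries did not overlap, a share near the 8.43% of all tested genes. Counts below 0 are given for each list, where 49.6% of all tested genes were below 0. How far these counts rest on single libraries was not computed. The other candidate mechanosensitive channels had 9 of 32 genes analysed, with 0 called, 6 of 9 below 0 and a median log2 difference of -0.25. Tmc7, of the transmembrane channel-like family, stood at 160, 193 and 192 scaled reads in the WT libraries and at 33.2, 105 and 64.0 in the KO libraries, all KO below all WT (log2 difference -1.54, SE 0.58, limma adjusted p = 0.999). Kcnma1, the large-conductance potassium channel, had -1.72 (SE 1.86), and Tmem87a had -0.25 (SE 0.39).

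PIEZO regulators and partners had 13 of 16 genes analysed, 0 called, 10 of 13 below 0 and a median of -0.17. Stom encodes stomatin, a membrane scaffold protein of the family whose member STOML3 sensitizes PIEZO channels in mouse. Stom stood at 5268, 5631 and 5269 scaled reads in the WT libraries and at 2790, 3489 and 2561 in the KO libraries. The groups did not overlap, at a log2 difference of -0.88 (SE 0.19), which did not pass over all genes (limma adjusted p = 0.999). The calcium pump gene Atp2a2 had -0.45 (SE 0.35) and the ubiquitin ligase gene Nedd4l -0.49 (SE 0.29).

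TRP channel partners and magnesium transport genes had 19 of 23 analysed, 0 called, 15 of 19 below 0 and a median of -0.23. The scaffold gene Homer1 averaged 492 ± 30.6 in WT and 369 ± 21.8 scaled reads in KO (SD, n = 3 each), without overlap, at a log2 difference of -0.41 (SE 0.21). The anchoring protein gene Akap5 had -2.47 (SE 1.39) and the magnesium transporter gene Slc41a1 -0.43 (SE 0.29).

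Polycystin maturation genes had 14 of 15 analysed, 0 called, 10 of 14 below 0 and a median of -0.08. Prkcsh encodes the beta subunit of glucosidase II, an enzyme of the endoplasmic reticulum needed to make mature polycystin-1. Its WT values were 10220, 8314 and 8572 scaled reads and its KO values 6228, 5944 and 6277, all KO below all WT (log2 difference -0.55, SE 0.19, limma adjusted p = 0.999). The mannosyltransferase gene Alg9 had -0.42 (SE 0.25) and the kinase gene Nek8 0.47 (SE 0.34).

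Primary cilium assembly genes had 39 of 41 analysed, 0 called, 15 of 39 below 0 and a median of 0.06. The heavy chain of the ciliary dynein motor, Dync2h1, averaged 575 ± 71.8 in WT and 377 ± 17.5 scaled reads in KO (SD, n = 3 each), without overlap, at -0.60 (SE 0.22). Wdr35 had 0.60 (SE 0.34) and Bbs9 -0.56 (SE 0.29). Calcineurin and NFAT genes, which read calcium signals, had 14 of 15 analysed, 0 called, 8 of 14 below 0 and a median of -0.04. The anchoring protein gene Akap13 had 0.50 (SE 0.20), and the calcineurin regulator genes Rcan1 and Rcan2 had -0.74 (SE 0.40) and -0.82 (SE 0.46). Adhesion and cytoskeleton linkers had all 16 genes analysed, 0 called, 9 of 16 below 0 and a median of -0.08, with vinculin, Vcl, at -0.66 (SE 0.47), Bcar1 at -0.32 (SE 0.19) and Syne1 at -0.33 (SE 0.24). The differences given for single genes of these lists are log2 KO minus WT values, and none of them passed limma's test.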

How the data were processed

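Poly(A)-selected, stranded paired-end libraries from 3 WT and 3 KO cultures were sequenced, per the labels' protocols. The submitters' processing notes name STAR, Partek, DESeq2, GRCm39 and mm39, with no version or role, and no source used here gives the counting settings. Coordinates in the authors' comparison table match GRCm38, since 12341 of 12385 genes shared with GENCODE M21 have the same start, and ends are given from M21.

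The deposited per-library values are a scaled signal, estimated reads after division by one factor per library, although one table is named raw counts. The authors' deposited table also gives p-values, FDR and log2 ratios.

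limma 3.58.1 (R 4.3.3, statmod 1.5.0) was fitted to log2(value + 2) for 12363 genes that reached 10 in 3 or more libraries (26 left out), with genotype as the only term, mean trend and robust priors, Benjamini-Hochberg adjustment over all genes and a threshold of 0.05, two-sided. Exact permutation tests used SciPy 1.17.1. The fit was tested on simulated data with a residual SD of 0.36 for every gene, the median over all tested genes. Piezo2 (2.92), Trpv4 (1.78), Trpc1 (0.91), Pkd2 (0.72), Pkd1 (0.68), Tmem63a (0.52) and Piezo1 (0.43) had larger ones. That test thus does not cover genes as variable as these. The series' design text calls the replicates biologically independent without naming animals, so p-values measure the spread between these libraries. Deviations of same-numbered libraries from their group means correlated at r = 0.43, 0.15 and 0.39 across genes. Libraries of unlike number were not compared in this way, so these values do not establish pairing, and no label gives it. The model stayed without the block.

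Members and lists were chosen with earlier results of these data known. Named were all members, the 3 genes of each companion list with the smallest p, the markers with the highest level, the most alike gene, and overlapping genes. The Piezo2 neighbours and Myh11 were chosen after their values were seen. For a symbol with several identifiers the highest was used.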

Additional observations from a re-analysis of the deposited data

How the results depend on the processing

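Over 24 alternatives (other scalings, pseudocounts, filters, the other per-library table, limma-voom, other priors, library quality weights, the replicate block, and 1 or 2 libraries left out) limma called 0 of the 9 channel genes and 0 companion genes in each. An unadjusted limma p under 0.05 was reached by 1 of the 9 without WT replicate 2, by 1 without KO replicate 2 and by 2 without both libraries numbered 2. The share over all tested genes is not given for these fits. The replicate block changed no call, with 0 genes called over all and a smallest adjusted p of 0.741 among the 9. Of 216 differences recomputed for the 9 genes, 196 kept their sign and 20 turned. The filters, the other priors and the replicate block without weights cannot change the estimate, so part of the kept signs was fixed in advance. The other per-library table holds nearly the same values, with 97.97% of them within 0.1%. Weights, which were 7.99 for WT replicate 2 and 0.361 to 1.97 for the others, turned Piezo1 to 0.19, Piezo2 to -1.13, Tmem63a to 0.069 and Pkd1 to 0.44 and called 30 genes over all, and weights with the replicate block turned Piezo1 to 0.11, Piezo2 to -0.40 and Pkd1 to 0.14 and called 5.

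Without both libraries numbered 1, Trpc1 had 0.45, the Tmem63a to Tmem63b ratio difference was 0.025 and that of Pkd1 to Pkd2 -0.11. Without those numbered 2, Trpc1 had 0.014, Piezo2 5.57 and the Piezo1 to Piezo2 ratio difference was -6.12. Without those numbered 3, Piezo1 had 0.20, Pkd1 0.17 and Piezo2 0.43, and that ratio difference was -0.23. The number of the 9 genes without overlap was then 1, 3 and 2. It ran from 0 to 2 with each library left out in turn. Fewer libraries separate more easily, and the share of all tested genes without overlap was not computed for these fits. With each library left out in turn, the count of genes called over all ran from 0 to 1, the 1 without KO replicate 1. The differences over these 6 fits ran from -0.47 to 0.087 for Piezo1, 1.36 to 4.48 for Piezo2, -1.42 to 0.57 for Trpv4, -0.27 to 0.12 for Trpm7, -0.80 to 0.43 for Trpc1, -0.88 to -0.28 for Tmem63a, -0.25 to -0.06 for Tmem63b, -0.47 to 0.27 for Pkd1 and -0.76 to 0.13 for Pkd2. For the ratios they ran from -4.95 to -1.27 for Piezo1 to Piezo2, -0.79 to -0.21 for Tmem63a to Tmem63b and -0.10 to 0.56 for Pkd1 to Pkd2. The cause was not tested. With the longest coding transcript as the length, Pkd2 had 2243, Tmem63b 1261 and Trpc1 29.9 scaled reads per kb. The lowest library of Piezo2 (KO replicate 2) and that of Trpv4 (KO replicate 3) each held 20.0 estimated reads. The part of depth in the spread of these genes was not tested.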
